A study of Mus musculus with 10 samples.

Results

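The 10 genes of the circadian clock and its output were followed in mouse whole brain: Arntl, Clock, Per1, Per2, Per3, Nr1d1, Nr1d2, Dbp, Tef and Bhlhe41. They were taken as the probe sets whose single annotated gene symbol was one of these names. Each gene had 1 such probe set, so 10 of the 21789 probe sets with 1 gene symbol are described. The study set adult brains of ethanol-exposed offspring against those of unexposed offspring. The ethanol groups were male C57BL/6J offspring of mothers that drank 10% ethanol in water, and the control groups were male C57BL/6J offspring of mothers given water only. Exposure ran from gestational day 0 to postnatal day 10, so pups were exposed through the mother on both sides of birth. All mice were killed by CO2 at postnatal day 70 after same-sex housing under 14 h of light and 10 h of dark. Experiment 1 had 2 ethanol and 2 control arrays, each with the pooled brain RNA of 3 mice. Experiment 2 had 3 ethanol and 3 control arrays, each with the pooled brain RNA of 2 mice. The time of day at which brains were collected is not given in the sources used here. Its part in the results was not tested. Whether pools shared litters is not stated either, and p-values therefore cover the variation from pool to pool.

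The mammalian clock is a transcriptional feedback loop. CLOCK and ARNTL (also called BMAL1) bind as a pair to E-boxes and switch on the Per genes, the Nr1d genes and Dbp. The PER proteins return to the nucleus with the cryptochromes and repress that pair, and BHLHE41 (DEC2) competes at the same E-boxes. NR1D1 and NR1D2 (REV-ERB alpha and beta) are nuclear receptors that repress Arntl through ROR elements, so Arntl peaks nearly opposite to Nr1d1 and Dbp over the day. DBP and TEF are bZIP transcription factors that bind D-boxes and pass the rhythm on to output genes. In the brain the master clock lies in the suprachiasmatic nucleus of the hypothalamus, and most other brain regions carry rhythms of their own. Per1 and Per2 can also be induced acutely by light, by glucocorticoids and by neuronal activity.

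The elements of this loop could be read in the promoters of some members. RefSeq promoters (assembly GRCm38.p6, 250 bases before to 50 after the gene start) were matched for 9 of the 10 genes, 14 start sites in all. Exact matches were counted on both strands to CACGTG (E-box), CACGTT (E-prime box), TTATGTA and TTACGTA (D-box core) and TAGGTCA and TGGGTCA (ROR element core). The 250 bases before the start are printed for the members whose match lies there, Tef excepted, and a 27-base window for Arntl, because they show which element of the loop each window holds. Capitals mark the match, and each sequence runs 5′ to 3′ on the strand of the gene. The Per1 window holds an E-box at base -166 from the start and lies at chr11:69098699-69098948 on the plus strand. The Bhlhe41 window holds an E-box at base -153 and lies at chr6:145865421-145865670 on the minus strand. The Nr1d1 window holds an E-prime box at base -28, read on the opposite strand, and lies at chr11:98775378-98775627 on the minus strand. The Per3 window holds TTATGTA at bases -205 and -158 and lies at chr4:151044666-151044915 on the minus strand. The Arntl window, around base 30 after its second annotated start, holds TAGGTCA and lies at chr7:113207531-113207557 on the plus strand.
Per1: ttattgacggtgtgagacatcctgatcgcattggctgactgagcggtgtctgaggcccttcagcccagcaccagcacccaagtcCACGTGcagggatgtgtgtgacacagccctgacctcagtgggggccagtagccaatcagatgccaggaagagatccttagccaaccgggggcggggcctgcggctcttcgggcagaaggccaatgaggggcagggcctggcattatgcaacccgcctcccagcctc
Bhlhe41: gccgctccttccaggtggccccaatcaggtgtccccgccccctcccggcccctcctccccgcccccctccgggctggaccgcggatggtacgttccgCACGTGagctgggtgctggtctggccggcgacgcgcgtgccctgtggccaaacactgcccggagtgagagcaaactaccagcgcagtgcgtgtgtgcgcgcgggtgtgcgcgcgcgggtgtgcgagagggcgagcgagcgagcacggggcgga
Nr1d1: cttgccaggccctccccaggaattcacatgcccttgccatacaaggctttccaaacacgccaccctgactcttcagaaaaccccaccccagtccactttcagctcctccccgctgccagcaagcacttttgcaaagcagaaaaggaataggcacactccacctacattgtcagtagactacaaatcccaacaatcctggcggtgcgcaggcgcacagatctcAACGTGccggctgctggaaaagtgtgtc
Per3: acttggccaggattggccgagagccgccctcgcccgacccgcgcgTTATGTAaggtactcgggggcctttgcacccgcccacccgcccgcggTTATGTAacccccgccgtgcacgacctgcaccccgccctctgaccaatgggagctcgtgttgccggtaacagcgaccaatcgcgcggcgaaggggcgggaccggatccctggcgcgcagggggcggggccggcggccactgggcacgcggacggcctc
Arntl: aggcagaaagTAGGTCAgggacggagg
Both Tef starts also held an E-box, at bases -127 and -138. The E-box was thus present in 3 members, while 7.15% of 32851 promoters (8.09% of 27025 genes) held it. CACGTT was found in 4.68% of all promoters, TTATGTA in 2.63% and TAGGTCA in 2.61%. TTACGTA was found in 0.475% and TGGGTCA in 3.98% of all promoters, and no member window held either. The windows of Dbp, Clock and Nr1d2 held none of the 6 letter strings, which says nothing of elements outside these bases. A match is a description of the sequence, not a measured binding site.

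Deposited log2 values ran from 4.27 to 15.4 and array medians from 6.99 to 7.05. No probe set with 1 gene symbol passed adjusted p 0.05 in any of the comparisons described here. The median standard error of an ethanol difference over all genes was 0.0806 log2 units in experiment 1 and 0.0658 in experiment 2. Each probe set had the same mean in both experiments in the deposited table, so levels were compared within an experiment only. Neuronal markers averaged 11.8 to 11.9 log2 units on all arrays. Pituitary markers differed between pools of the tissue labelled whole brain, and the mean of 7 of them was 7.23 to 8.10 on the ethanol arrays of experiment 1, against 5.63 to 5.77 on its control arrays. In experiment 2 that mean was 6.23, 8.68 and 6.25 on the ethanol arrays, against 6.14 to 6.57 on the control arrays. In bulk tissue, fewer cells of a type and less RNA per cell cannot be told apart.

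All 10 genes had mean log2 levels in the upper part of all gene probe sets, between the 55.2 percentile (Per3) and the 96.5 percentile (Nr1d1). Their spread over the 10 arrays differed widely. Dbp ranged over 0.57 log2 units and Per1 over 0.52, and the SDs of these genes lay at the 98.5 and 95.8 percentiles of all gene probe sets. Arntl and Clock ranged over 0.13 and 0.14 log2 units, at the 11.7 and 5 percentiles. The activators of the loop were thus nearly flat over the arrays, and Dbp was among the most variable genes measured.

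**Figure D1:**
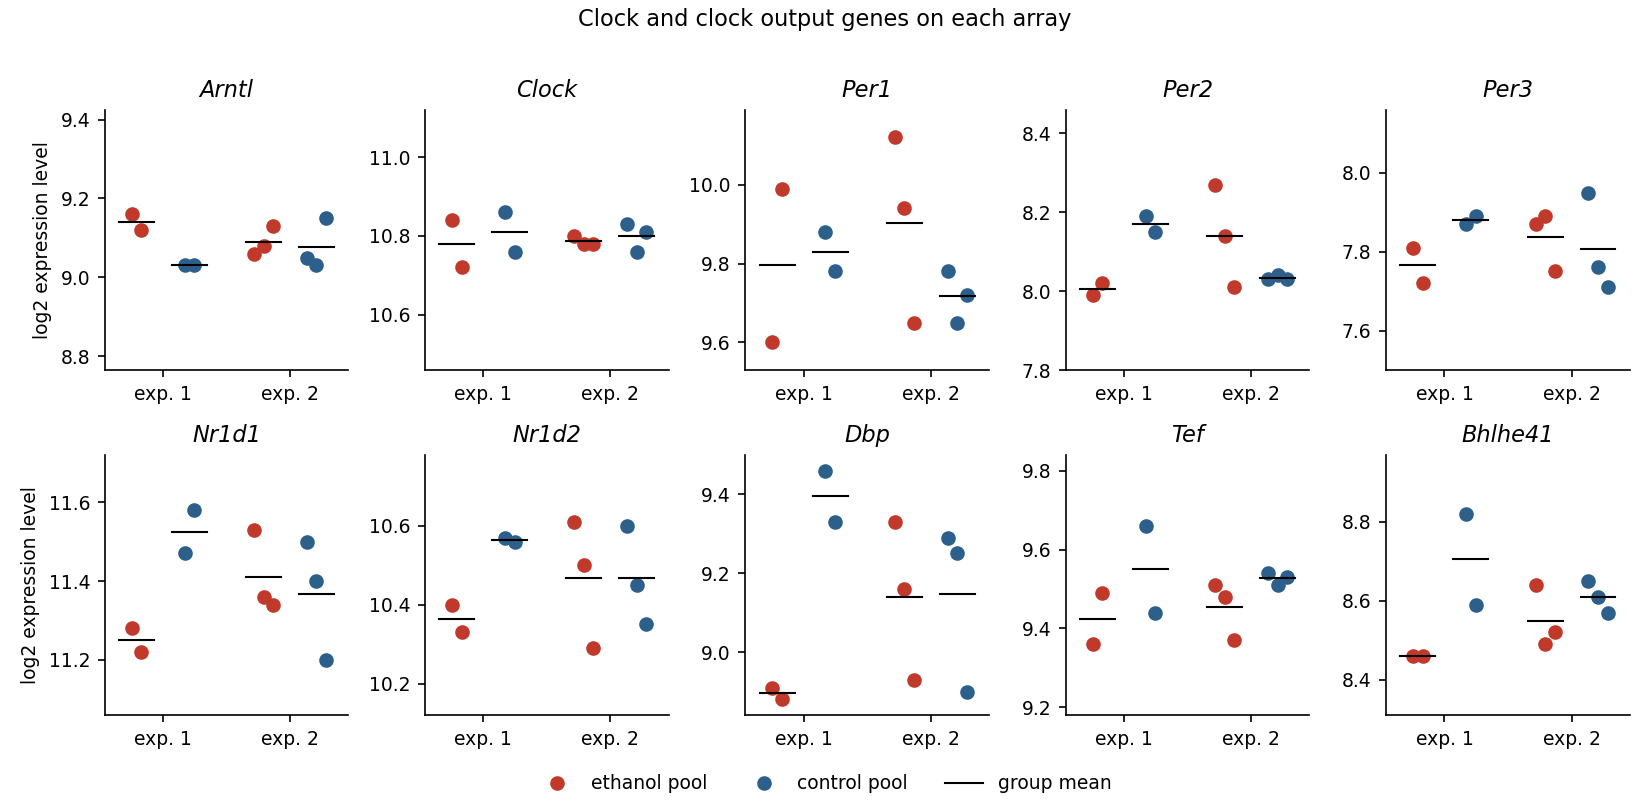
Log2 expression level of each of the 10 genes on each array, one point per pooled sample, with ethanol pools left of control pools within each experiment and a black line at the group mean. Every panel spans the same number of log2 units. In experiment 1 the Dbp points of the ethanol pools (8.88 and 8.91) lie below those of the control pools (9.33 and 9.46), and in experiment 2 the groups overlap.

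Dbp, an output transcription factor with a wide daily rhythm in many tissues, differed most between the groups of experiment 1. Its level (probe set 10553092) was 8.91 and 8.88 on the ethanol arrays, against 9.46 and 9.33 on the control arrays. Both ethanol pools lay below both control pools. The means were 8.89 ± 0.02 in ethanol and 9.39 ± 0.09 in control pools (SD, n = 2 each), a difference of -0.50 ± 0.14 log2 units (SE), or 1.41-fold more in control pools. Its limma unadjusted p was 0.00357, the 205th smallest of all, and its Benjamini-Hochberg adjusted p was 0.378, so the difference did not pass the test over all genes. In experiment 2 Dbp was 9.33, 9.16 and 8.93 on the ethanol arrays and 9.29, 9.25 and 8.90 on the control arrays. Those groups overlapped, and the third pool of each was its lowest. The difference there was -0.01 ± 0.11 log2 units, with a 95% confidence interval of -0.25 to 0.24.

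Tef, the relative of Dbp that binds the same D-boxes, varied less. Its level (probe set 10425601) was 9.36 and 9.49 in ethanol pools and 9.66 and 9.44 in control pools of experiment 1, where the groups overlapped. In experiment 2 it was 9.51, 9.48 and 9.37 in ethanol pools, against 9.54, 9.51 and 9.53 in control pools. The control pools lay close together there, the first ethanol pool reached their lower edge, and the third was the lowest. The differences were -0.13 ± 0.08 log2 units (limma unadjusted p 0.15) in experiment 1 and -0.07 in experiment 2. In experiment 1 the value was -0.02 without the first control array and -0.24 without the second (unadjusted p 0.858 and 0.0193), and -0.06 without the first and -0.19 without the second ethanol array.

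Among the repressors, both REV-ERB genes had lower levels in the ethanol pools of experiment 1, as Dbp did. Nr1d1 (probe set 10390691) was 11.28 and 11.22 in ethanol pools, against 11.47 and 11.58 in control pools. The groups did not overlap, and the difference was -0.28 ± 0.10 log2 units (limma unadjusted p 0.0172, adjusted p 0.462). That unadjusted p was 0.0696 without the second ethanol array and 0.106 without the second control array of experiment 1. Nr1d2 (probe set 10417734), its paralog with an overlapping role, was 10.40 and 10.33 in ethanol pools, against 10.57 and 10.56 in control pools. These groups were also separate, with a difference of -0.19 ± 0.10 log2 units (limma unadjusted p 0.0826, adjusted p 0.607).

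In experiment 2 the REV-ERB genes spread within each treatment instead. Nr1d1 was 11.53, 11.36 and 11.34 in ethanol pools and 11.50, 11.40 and 11.20 in control pools. Nr1d2 was 10.61, 10.50 and 10.29 in ethanol pools and 10.60, 10.45 and 10.35 in control pools. For both genes the groups overlapped, and the third control pool and the third ethanol pool were the lowest of their groups. The Nr1d1 difference was 0.04 log2 units with a 95% confidence interval of -0.13 to 0.22, and the Nr1d2 difference was 0.00.

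Bhlhe41, the E-box competitor, was the member with the lowest unadjusted p over both experiments. In experiment 1 its level (probe set 10549276) was 8.46 on both ethanol arrays, against 8.82 and 8.59 on the control arrays. The groups did not overlap, but the first control array stood well above the second. The difference was -0.25 ± 0.08 log2 units (limma unadjusted p 0.0121, adjusted p 0.426), and without the first control array it was -0.13 log2 units with an unadjusted p of 0.154. In experiment 2 Bhlhe41 was 8.64, 8.49 and 8.52 in ethanol pools and 8.65, 8.61 and 8.57 in control pools. The first ethanol pool lay within the control range and the other ethanol pools below it, and the difference was -0.06 log2 units (limma unadjusted p 0.368). Over both experiments the difference was -0.14 ± 0.06 log2 units (limma unadjusted p 0.0318, adjusted p 0.373). That value was -0.08 log2 units with an unadjusted p of 0.0977 without the first control array of experiment 1. The unadjusted p was also above 0.05, at 0.0501 to 0.0741, without either ethanol array of experiment 1, the second or the third ethanol array of experiment 2, or its first control array.

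The 3 Period genes, which encode the core repressors, differed among themselves. Per1 (probe set 10377439) was 9.60 and 9.99 in ethanol pools, against 9.88 and 9.78 in control pools of experiment 1. In experiment 2 it was 10.12, 9.94 and 9.65 in ethanol pools, against 9.78, 9.65 and 9.72 in control pools. In each experiment the ethanol pools spread more widely than the control pools and included the highest array. The Per1 SD was 0.27 in ethanol and 0.07 in control pools of experiment 1 (n = 2 each), and 0.24 in ethanol and 0.07 in control pools of experiment 2 (n = 3 each). The spreads were not tested against each other. The Per1 difference was -0.03 ± 0.14 log2 units in experiment 1 and 0.18 ± 0.12 in experiment 2 (limma unadjusted p 0.145, adjusted p 0.621).

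Per2 differed in sign between the experiments. Its level (probe set 10356601) was 7.99 and 8.02 in ethanol pools, against 8.19 and 8.15 in control pools of experiment 1. In experiment 2 it was 8.27, 8.14 and 8.01 in ethanol pools, against 8.03, 8.04 and 8.03 in control pools. The groups were separate in experiment 1 with ethanol below control. In experiment 2 the control pools lay within a narrow band, with 2 ethanol pools above it and 1 below. The differences were -0.17 ± 0.08 log2 units (limma unadjusted p 0.0537) in experiment 1 and 0.11 ± 0.06 (limma unadjusted p 0.122) in experiment 2. Per3 (probe set 10518781), the Period gene thought least needed for the rhythm itself, was 7.81 and 7.72 in ethanol pools, against 7.87 and 7.89 in control pools of experiment 1. In experiment 2 Per3 was 7.87, 7.89 and 7.75 in ethanol pools and 7.95, 7.76 and 7.71 in control pools. The groups were separate in experiment 1 and overlapped in experiment 2, with differences of -0.12 and 0.03 log2 units.

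Of the activators, Arntl was the one member with a difference above 0 in experiment 1, as Per1 also was under quantile normalization. Its level (probe set 10556463) was 9.16 and 9.12 in ethanol pools, against 9.03 on both control arrays. The groups did not overlap, and ethanol was higher by 0.11 ± 0.06 log2 units (limma unadjusted p 0.109, adjusted p 0.643). In experiment 2 Arntl was 9.06, 9.08 and 9.13 in ethanol pools and 9.05, 9.03 and 9.15 in control pools. The groups overlapped, the third control and the third ethanol pool were the highest, and the difference was 0.01 log2 units. Clock (probe set 10530733), whose RNA is close to constant over the day in most tissues, was 10.84 and 10.72 in ethanol pools and 10.86 and 10.76 in control pools of experiment 1. In experiment 2 Clock was 10.80, 10.78 and 10.78 in ethanol pools and 10.83, 10.76 and 10.81 in control pools. Its groups overlapped in both experiments, with differences of -0.03 and -0.02 log2 units.

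Counted together, no member passed adjusted p 0.05 in limma in any comparison, and neither did any other gene (0% of gene probe sets). An unmoderated linear model also called 0 members and 0 genes. At unadjusted p under 0.05 in limma, 3 of the 10 members were called in experiment 1 (Nr1d1, Dbp and Bhlhe41), against 8.95% of all gene probe sets. All 3 were lower in ethanol, where 4.93% of all gene probe sets were called lower and 4.02% higher. In experiment 2, 0 members were called, against 9.97% of all (3.78% higher and 6.19% lower). Over both experiments 1 member (Bhlhe41) was called, and it was lower in ethanol, against 12.4% of all (4.72% higher and 7.68% lower). The unmoderated model gave unadjusted p under 0.05 for 3 members in experiment 1 (Dbp and Bhlhe41 lower, Arntl higher; Nr1d1 had 0.0511), 0 in experiment 2 and 0 over both.

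In experiment 1, 9 of the 10 members had a difference below 0, against 51.8% of all gene probe sets. Under quantile normalization the Per1 difference was 0.02 and the others kept their sign. The median over members was -0.15 log2 units, and that over all genes was -0.0045. All ethanol arrays lay below all control arrays in 6 members (Per2, Per3, Nr1d1, Nr1d2, Dbp and Bhlhe41), against 19.2% of all gene probe sets. They lay above in 1 member (Arntl), against 15.1%. In experiment 2, 4 members had a difference below 0, against 54.9% of all, and the medians were 0.0074 over members and -0.0112 over all genes. No member separated the groups there in either direction, against 11.6% of gene probe sets with ethanol below control and 7.62% with ethanol above. Over both experiments 8 members were below 0, against 54.4% of all. Several members varied together over these same pools, as described below, so the counts of members are not counts of independent genes.

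**Figure D2:**
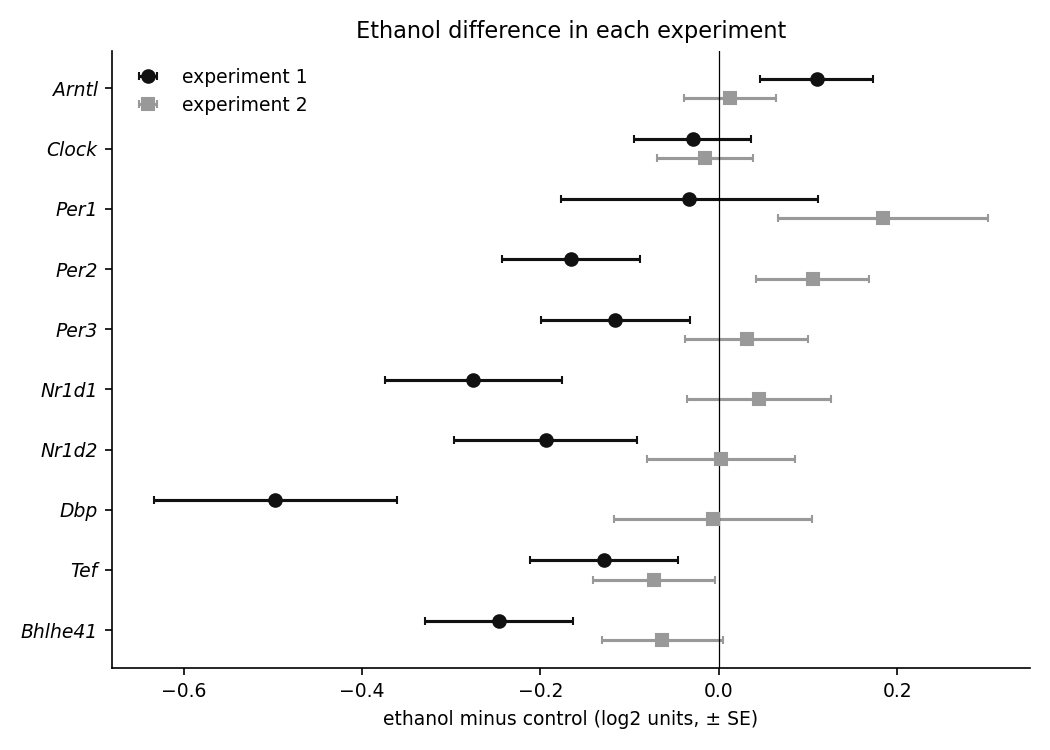
Ethanol minus control in log2 units (horizontal axis, ± SE) for each gene, black circles for experiment 1 (n = 2 pools a group) and grey squares for experiment 2 (n = 3 pools a group). In experiment 1 all genes but Arntl lie below 0, Dbp farthest at -0.50, while in experiment 2 the values run from -0.07 for Tef to 0.18 for Per1.

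The ethanol differences of the experiments were then set against each other. Dbp differed between them by 0.49 ± 0.18 log2 units, experiment 2 minus experiment 1, with a limma unadjusted p of 0.0169 and an adjusted p of 0.701. The 95% confidence interval ran from 0.11 to 0.88. Nr1d1 differed by 0.32 ± 0.13 (unadjusted p 0.0284, adjusted p 0.745) and Per2 by 0.27 ± 0.10 (unadjusted p 0.0192, adjusted p 0.701). These 3 members were called higher at unadjusted p under 0.05, against 3.33% of all gene probe sets (3.24% lower and 6.57% in either direction), and no member passed the adjusted threshold. Arntl alone among the members had a value below 0, joined by Clock under median centring, against 52.7% of all gene probe sets. The unmoderated model called 1 member (Per2) at unadjusted p under 0.05. Without the first control array of experiment 1, the unadjusted p was 0.067 for Dbp and 0.055 for Per2. For Nr1d1 it was 0.0573 to 0.105 without the second ethanol or the second control array of experiment 1, or the first ethanol or the third control array of experiment 2.

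The members were also compared with each other from pool to pool. Correlations were computed for the 45 pairs of members over the 10 arrays, on values minus the mean of the experiment. Permutation of the arrays (100000 resamples, two-sided, Benjamini-Hochberg over the 45 pairs) gave 9 pairs at adjusted p under 0.05, of which 7 were positive and 2 negative. Spearman's rho gave 8 pairs, 6 of them among these 9. Under quantile normalization 6 pairs passed, 5 of them among the 9, and Per3 with Nr1d1, Dbp with Bhlhe41, Tef with Bhlhe41 and Arntl with Nr1d1 missed (adjusted permutation p 0.0515 to 0.139). These tests exchanged arrays freely between the experiments. In an exact test that permuted arrays only within an experiment (17280 orders), added after the data were seen, 0 pairs passed after adjustment and 15 passed unadjusted. The 9 pairs had adjusted p of 0.0521 to 0.099 there, so the calls depend on how arrays are exchanged. Each of the 9 kept its sign after removal of the treatment means, within experiment 2 and without the 2 arrays farthest from the median. With treatment means removed and arrays permuted only within groups (144 orders, smallest possible exact p 0.00694), 0 pairs passed after adjustment and 3 passed unadjusted, 2 of them among the 9. Within the 6 arrays of experiment 2 no pair passed after adjustment. There 6 passed unadjusted in an exact permutation test, with the smallest p at 0.00694 (Nr1d1 with Dbp).

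Dbp and Arntl had the largest Pearson's r in size over the 10 arrays, though not by rho or with treatment means removed. On the 10 arrays Arntl was high where Dbp was low, with Pearson's r of -0.943 (permutation p 0.00045, adjusted 0.0168) and Spearman's rho of -0.855 (permutation p 0.00281, adjusted 0.0404). In experiment 1 both ethanol pools had the lowest Dbp and the highest Arntl levels. In experiment 2 the third ethanol and the third control pools had the lowest Dbp and the highest Arntl levels. The pair had r = -0.929 without the 2 arrays farthest from the Arntl median, -0.883 with treatment means removed and -0.947 within experiment 2 (exact permutation p 0.0139, adjusted 0.208). It ran from -0.958 to -0.932 with each array left out in turn. With arrays permuted only within experiments, the adjusted exact p of this pair was 0.0521. As values minus the mean of the experiment, Dbp did not spread evenly, since 4 arrays lay at -0.26 to -0.21, 1 at 0.02 and 5 at 0.11 to 0.31. The relation within each of these sets was not tested.

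The REV-ERB genes varied in the same direction as Dbp. Nr1d2 and Dbp had r = 0.902 (permutation p 0.00146, adjusted 0.0168; rho 0.818, permutation p 0.00628), and Nr1d1 and Dbp had r = 0.893 (permutation p 0.00113, adjusted 0.0168; rho 0.915, permutation p 0.00055). Without the 2 farthest arrays these were 0.870 and 0.895. Nr1d1 and Nr1d2 correlated with each other at r = 0.864 (adjusted permutation p 0.017), and with treatment means removed at 0.812. Nr1d1, the repressor of Arntl, ran opposite to it at r = -0.855 (adjusted permutation p 0.0188). That pair had -0.759 with treatment means removed and -0.637 under quantile normalization (adjusted permutation p 0.139). With arrays permuted only within experiments, the pairs of this paragraph had adjusted exact p of 0.0521 to 0.0723, so none passed.

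**Figure D3:**
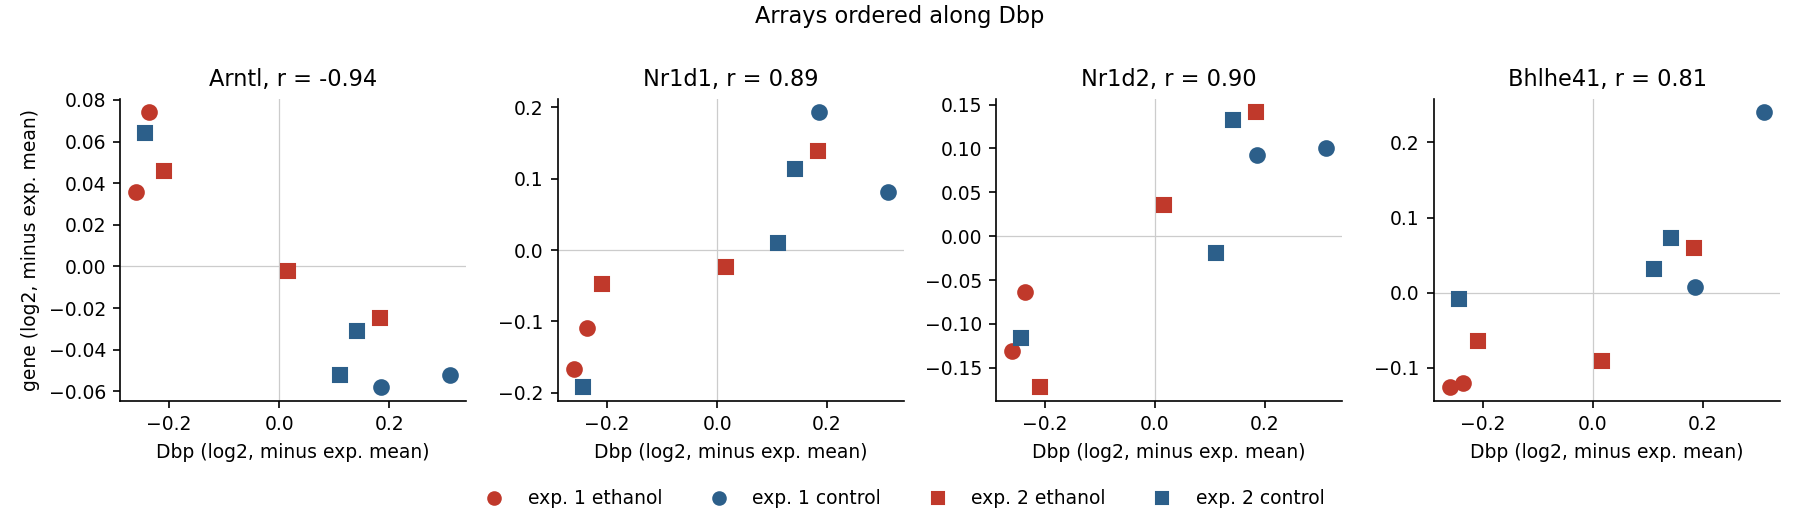
Arntl, Nr1d1, Nr1d2 and Bhlhe41 (vertical axes) against Dbp (horizontal axis) on the 10 arrays, all as log2 level minus the mean of the experiment; circles are experiment 1 and squares experiment 2, red ethanol and blue control. Arntl runs down as Dbp runs up (r = -0.943), the other genes run up with it (r = 0.815 to 0.902), and ethanol and control pools of experiment 2 lie along the same course.

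Per3 tracked the REV-ERB genes, at r = 0.898 with Nr1d2 (adjusted permutation p 0.0168) and 0.808 with Nr1d1 (adjusted permutation p 0.0373). Without the 2 farthest arrays these were 0.853 and 0.632. Bhlhe41 correlated with Dbp at 0.815 (adjusted permutation p 0.0168), and at 0.605 with treatment means removed. Bhlhe41 and Tef correlated at 0.817 (adjusted permutation p 0.0287), but at 0.485 without the first control array of experiment 1 (adjusted permutation p 0.385), so the size of that relation rests on 1 array. Per1 and Per2 had r = 0.719 over all arrays (adjusted permutation p 0.0647) and 0.960 within experiment 2 (exact permutation p 0.0125, adjusted 0.208). No pair with Clock was among the 9. As stated above, none of the 9 passed after adjustment with arrays permuted only within experiments. With each array left out in turn, 5 of the 9 pairs passed every time. Arntl with Nr1d1 had adjusted permutation p of 0.0505 and 0.0611 without the second control array of experiment 1 or the third of experiment 2. Dbp with Bhlhe41 had 0.0501 to 0.091 without the first or second ethanol or the first control array of experiment 1. Tef with Bhlhe41 also missed without the first ethanol array of experiment 1 (0.057) and the third of experiment 2 (0.0504). Per3 with Nr1d1 missed without 6 of the 10 arrays, at 0.0504 to 0.0929. These were the second ethanol and both control arrays of experiment 1, and the first and the third ethanol and the third control array of experiment 2.

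**Figure D4:**
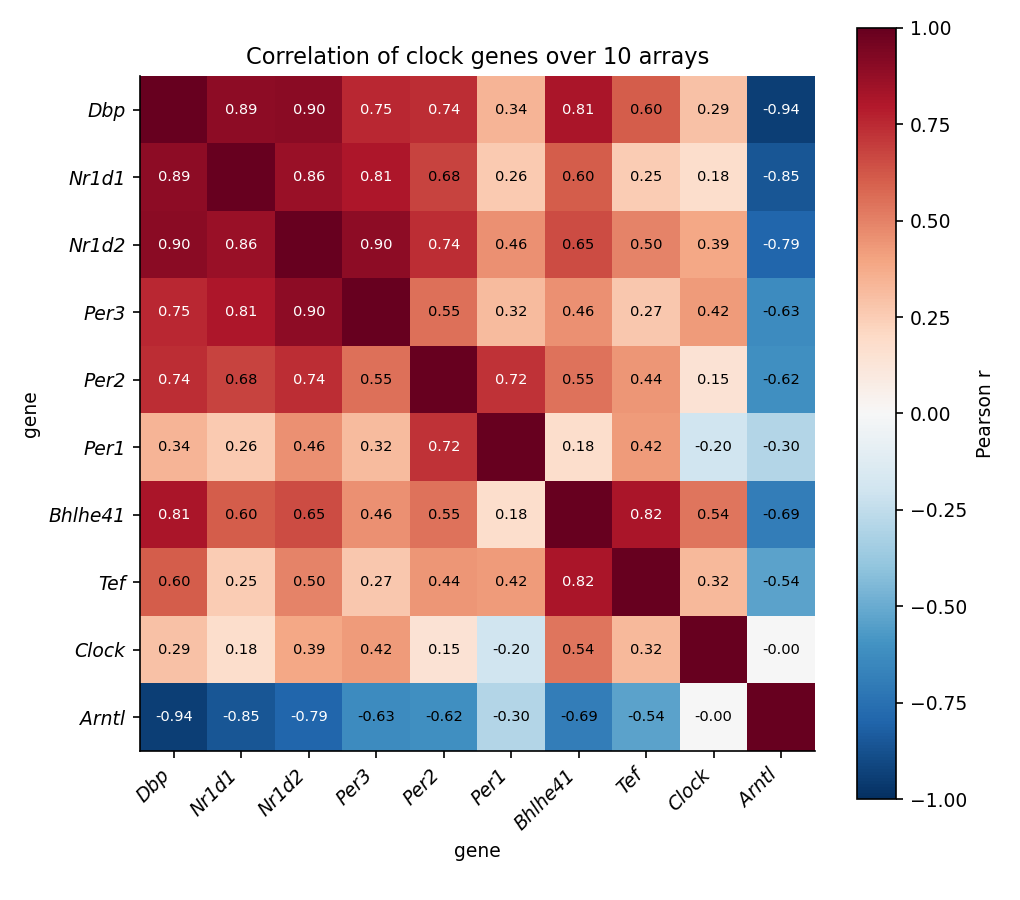
Pearson r for each pair of the 10 genes over the 10 arrays, on log2 values minus the mean of the experiment, from blue (-1) to red (1), with the diagonal set to 1. Dbp, Nr1d1, Nr1d2 and Per3 form a block of positive values from 0.751 to 0.902, and Arntl is negative against each of these.

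Set against every gene probe set, several members stood near the ends of the ranking by likeness to Dbp. The measure was Pearson's r with Dbp over the 10 arrays, for 21788 gene probe sets other than Dbp, given as a description. Arntl had the second lowest r of all. Nr1d2 ranked 21st and Nr1d1 30th from the top, Bhlhe41 182nd, Per3 467th, Per2 522nd and Tef 1633rd. Per1 and Clock, at ranks 5282 and 6083, stood well inside the ranking. Only 0.096% of gene probe sets had r above 0.9 and 0.06% had r below -0.9. Under quantile normalization Arntl was the 14th lowest, Nr1d1 ranked 17th and Nr1d2 29th. With treatment means removed the ranks were less extreme, with Arntl 133rd from the bottom and Nr1d2 163rd, Nr1d1 614th, Per3 1359th, Per2 1462nd and Bhlhe41 2306th from the top. Non-members stood at the ends too. The highest were Mamld1, Lxn and Denn2b (each 0.957), Zfp287 (0.953), Wdr83os (0.947) and Igf2r (0.946). The lowest were Prl3a1 (-0.964), Slc12a1 (-0.942), Olfr1384 (-0.936), Pspn (-0.933), Adipoq (-0.93) and Cyp2ab1 (-0.924). Prl3a1, Slc12a1, Adipoq and Cyp2ab1 had mean levels of 5.20 to 5.71, below the lower quartile of every array (5.78 to 5.87). Olfr1384 stood near it at 5.88, and Pspn was at 6.61. All these values come from the same 10 pools and share their normalization.

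Per1 and Per2 were also set beside 12 activity-induced genes, such as Fos, Arc and Egr1, which neurons switch on within minutes of firing. The mean of these genes was 7.49 and 8.35 in ethanol pools, against 7.60 and 7.85 in control pools of experiment 1. In experiment 2 it was 8.43, 7.92 and 7.65 in ethanol pools, against 7.50, 7.86 and 7.57 in control pools. The second ethanol pool of experiment 1 and the first of experiment 2 were the highest, as they were for Per1. From a larger set of array measures, 4 were chosen after the data were seen and set against 5 members. The adjustment covers only these 20 relations, not the measures that were passed over. Among the 20, Per1 with this mean had r = 0.788 (permutation p 0.00585, adjusted 0.039; rho 0.685, permutation p 0.0343). Without those 2 pools r was 0.36, so the relation rests on them, and with arrays permuted only within experiments its exact p was 0.0115 (adjusted 0.115). Per2 had 0.472 (permutation p 0.165) and Dbp 0.071 (permutation p 0.828). Among the measures passed over, Per1 had r = 0.757 with the mean of neuronal markers and 0.67 with that of glucocorticoid-responsive genes. With the mean of further clock output genes it had 0.656. The remaining measures passed over ran from -0.502 (microglial markers) to 0.53 (further core clock genes). These relations were not tested, and a high r of Per1 was not limited to the activity-induced genes.

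**Figure D5:**
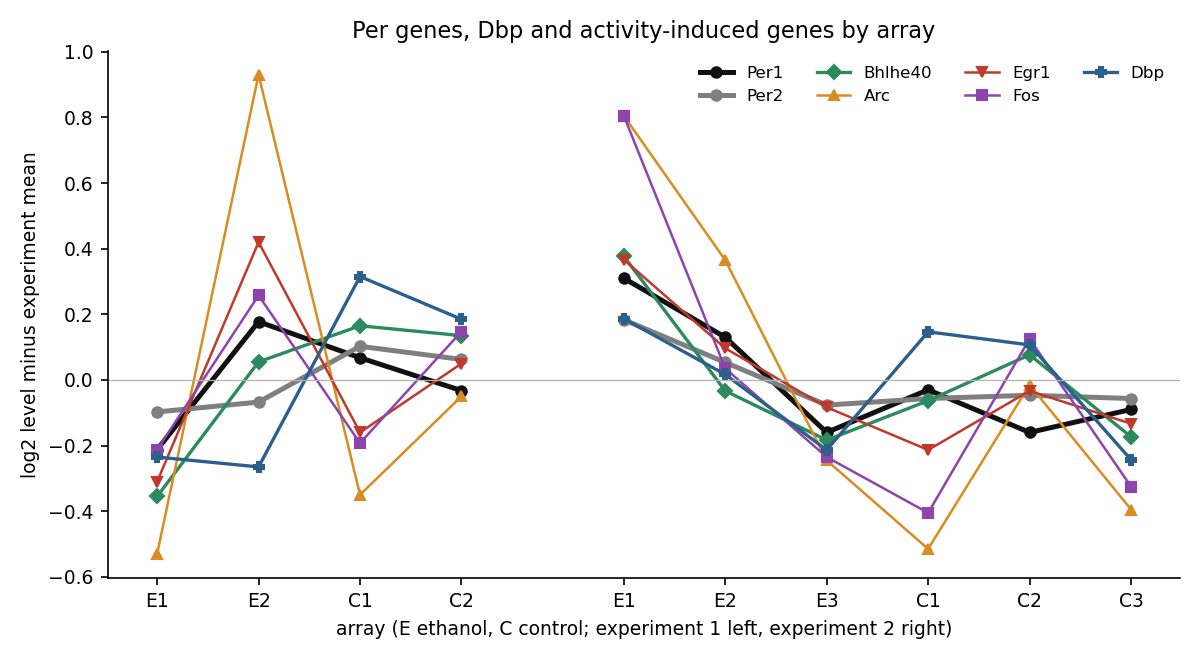
Log2 level minus the mean of the experiment (vertical axis) for Per1, Per2, Dbp, Bhlhe40 and the activity-induced genes Arc, Egr1 and Fos on each array (horizontal axis; E ethanol, C control, experiment 1 on the left). Per1 and the activity-induced genes peak on ethanol array 2 of experiment 1 and ethanol array 1 of experiment 2, while Dbp is at its lowest on the first of these arrays.

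Other genes of the clock gave few differences. Of 19 further core clock genes 16 were measured, and 0 passed adjusted p 0.05. At unadjusted p under 0.05 in limma, 0 were called in either direction in experiment 2, against 9.97% of all gene probe sets. In experiment 1, 1 was lower in ethanol, against 4.93% of all gene probe sets. That gene was Fbxl21, which encodes an F-box protein acting on cryptochromes, at 8.57 and 8.47 in ethanol pools, against 8.77 and 8.71 in control pools (difference -0.22 log2 units, unadjusted p 0.00651, adjusted p 0.388). Next by unadjusted p were Bhlhe40, the close relative of Bhlhe41, at -0.30 log2 units (0.101), Ciart at -0.26 (0.123) and the cryptochrome Cry2 at -0.13 (0.19). Ciart, a repressor of the CLOCK and ARNTL pair, had 2 probe sets, with differences of -0.26 and -0.17 log2 units in experiment 1 and 0.11 and 0.04 in experiment 2. The list median was -0.03 log2 units in each experiment, beside -0.0045 and -0.0112 over all genes.

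Of 21 further output genes 19 were measured, 0 passed adjusted p 0.05, and the list medians were -0.0011 log2 units in experiment 1 and -0.0171 in experiment 2. Tspan4, a tetraspanin, was 8.40 and 8.45 in ethanol pools, against 8.75 and 8.76 in control pools of experiment 1 (difference -0.33 log2 units, limma unadjusted p 0.000972, adjusted p 0.309). Wee1, a mitotic kinase with a clock-driven rhythm in liver, was lower at unadjusted p under 0.05 in both experiments. Its differences were -0.18 log2 units (unadjusted p 0.0316) in experiment 1 and -0.14 (unadjusted p 0.0348) in experiment 2. Of all gene probe sets, 4.93% were called lower in experiment 1 and 6.19% in experiment 2, and those lower in both were not counted. The 12 peptides and receptors of the suprachiasmatic nucleus were all measured, and 3 were higher in ethanol at unadjusted p under 0.05 in experiment 1, as were 4.02% of all gene probe sets. They were Nms at 0.26, Prokr2 at 0.21 and Nmur2 at 0.19 log2 units. Nms (5.83 and 5.63 in ethanol, 5.42 and 5.52 in control pools) and Nmur2 (5.63 and 5.54 in ethanol, 5.38 and 5.41 in control pools) lay below the lower quartile of their arrays. That quartile was itself higher on the ethanol arrays, at 5.86 on both, against 5.78 and 5.83 on the control arrays, and its part in these differences was not tested. In experiment 2 that list had 1 lower gene, Grp at -0.19 log2 units.

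Lists of signals that act on the clock were read in the same way, again with 0 genes past adjusted p 0.05 in limma. At unadjusted p under 0.05, 4.02% of all gene probe sets were higher and 4.93% lower in experiment 1. In experiment 2 these shares were 3.78% and 6.19%. Of 7 measured temperature-responsive genes, the cold-induced RNA-binding genes Cirbp and Rbm3 were lower by 0.26 log2 units each in ethanol pools of experiment 1 (unadjusted p 0.0076 and 0.0406). The other 5, all heat shock genes, had differences above 0 there, and the list median was 0.08 log2 units. No gene of the list was called in experiment 2. Of 11 measured glucocorticoid-responsive genes, Plin4 was 0.28 log2 units higher in experiment 1 (unadjusted p 0.0189) and Fkbp5 differed by -0.20 in experiment 2 (unadjusted p 0.0121). Plin4 was 6.34 and 5.95 in ethanol pools, against 5.81 and 5.92 in control pools of experiment 1. All but the first of these values lay near the lower quartile of their arrays. Of the 12 activity-induced genes, 0 were called in experiment 1, where 11 had differences above 0 and the list median was 0.15 log2 units, with 51.8% of all gene probe sets below 0. In experiment 2 all 12 had differences above 0, with a list median of 0.33 log2 units and 54.9% of all gene probe sets below 0, and Egr2 (0.74 log2 units) and Nr4a3 (0.48) were called at unadjusted p under 0.05. The mean of the 12 overlapped between the groups in both experiments. In experiment 2 it was highest in the first ethanol pool, at 8.43, and was 7.65 in the third, against 7.86 in the second control pool.

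Tissue markers and the quartiles of the arrays moved with some members. The mean of 6 cerebellar markers was 10.76 and 10.45 in ethanol pools, against 10.92 on both control arrays of experiment 1. There 4 of the 6 were lower in ethanol at unadjusted p under 0.05 in limma, against 4.93% of all gene probe sets. In experiment 2 the mean was 10.80, 10.79 and 10.52 in ethanol pools, against 10.88, 10.80 and 10.79 in control pools. Dbp correlated with this mean at r = 0.751 (permutation p 0.00428, adjusted over 20 relations 0.039; rho 0.903, permutation p 0.00078). Without the 2 farthest arrays r was 0.741, within experiment 2 it was 0.625, and with treatment means removed it was 0.552. Bhlhe41 correlated with the lower quartile of each array at r = -0.888 (permutation p 0.00073, adjusted 0.0146; rho -0.782, permutation p 0.0106) and at -0.696 without the 2 farthest arrays. In experiment 2 that quartile was 5.85 to 5.87 in ethanol against 5.80 to 5.83 in control pools. For Dbp the same relation had r = -0.718 (permutation p 0.0216, adjusted 0.0863; rho -0.588, permutation p 0.0814). The upper quartile, not among the 20 relations and not tested, went the other way, at r = 0.887 with Bhlhe41 and 0.666 with Dbp. The lower quartile is thus not a measure of brightness alone. With the pituitary mean, Bhlhe41 had r = -0.725 (permutation p 0.0175, adjusted 0.0863; rho -0.83, permutation p 0.00494) and Dbp had -0.523 (permutation p 0.125; rho -0.794, permutation p 0.0088). With treatment means removed these were -0.395 and -0.055, and within experiment 2 they were -0.696 and -0.063. With arrays permuted only within experiments (exact test), none of the 20 relations passed after adjustment, and the smallest adjusted p was 0.115. The part of these measures in the differences of Dbp and Bhlhe41 was not tested. Pineal markers, 7 of 8 measured, averaged 5.61 to 5.74 on all arrays.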

How the data were processed

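Whole-brain RNA (200 ng of total RNA per array, per the labels' protocols) was measured on Affymetrix whole-transcript arrays. The deposited table holds log2 expression levels for 35556 probe sets on 10 arrays. The submitters' processing notes name Partek 6.6. How background was corrected and arrays were normalized is not given in the sources used here. In the deposited log2 values the experiments had equal means for every probe set, to within 5.83e-05, so levels cannot be compared between them. Arrays were grouped by their titles.

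Gene names came from GEO's platform annotation. Of the annotated probe sets, 21789 with 1 gene symbol were tested and 1621 with several were not named. The 10 member symbols matched the RefSeq gene table through Entrez identifiers. The fit had a mean for each experiment and treatment, or terms for experiment and treatment over both, in limma 3.58.1 (R 4.3.3) with eBayes and Benjamini-Hochberg adjustment over all 21789 at 0.05. All differences are ethanol minus control. Correlations used numpy 2.4.6 and scipy 1.17.1, and figures matplotlib 3.10.9. Every member is named, and of each further gene list up to 4 genes with the smallest unadjusted p in a comparison. The members, lists and tests were chosen with earlier results of these data known. The alternatives were other scalings, filters, variance models, a replicate block, other array sets, and each array left out. The fit and the correlations were tested on simulated data.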

Additional observations from a re-analysis of the deposited data

Results flagged for a closer look

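Dbp, Nr1d1 and Per2 had ethanol differences that were unequal in the experiments, each by the limma test of that difference at unadjusted p under 0.05 and none after adjustment over all genes. Experiment 2 minus experiment 1 was 0.49 log2 units for Dbp, 0.32 for Nr1d1 and 0.27 for Per2. The ethanol difference of Dbp was -0.01 in experiment 2 and -0.50 in experiment 1, that of Nr1d1 0.04 and -0.28, and that of Per2 0.11 and -0.17 in the same order. The experiments also differed in the number of brains per pool, 2 in experiment 2 and 3 in experiment 1, and the part of this was not tested.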

How the results depend on the processing

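With 2 or 3 arrays a group, their number limits the precision, and no collection time was given to set beside the clock genes. No probe set passed adjusted p 0.05 as reported. In experiment 1, 1 passed when its arrays were fitted alone. In experiment 2, 3 passed with a trended robust prior and 2 with array weights, which also gave 1 member (Per1) at unadjusted p under 0.05. Over both experiments the members at unadjusted p under 0.05 were 0 under quantile normalization and without moderation, 3 under median centring and 2 with a replicate block. Deviations from the group mean in experiment 2 correlated at -0.146 to 0.23 between same-numbered ethanol and control arrays. Between differently numbered ones they correlated at -0.228 to 0.209. In experiment 1, with 2 arrays a group, the values (-0.052 and 0.052) are equal in size by construction. Whether replicate numbers pair the arrays is not settled by these values, and the third pool of each group of experiment 2 was its lowest in Dbp. The block left 0 probe sets past the adjusted threshold in each comparison. For the difference between experiments 1 member was called without moderation. In experiment 2 alone 0 pairs of members passed, and also 0 with arrays permuted within experiments or, with group means removed, within groups.

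With each array left out in turn, probe sets past the threshold were 0 to 235 in experiment 1 (235 without its first ethanol array), 0 to 1 in experiment 2, 0 to 1 over both and 0 to 94 for the difference between experiments (94 without that same array). Members at unadjusted p under 0.05 were 2 to 5, 0 to 2, 0 to 3 and 1 to 4 in the same order, and correlated pairs 6 to 13. The cause was not tested. Dbp in experiment 1 ran from -0.56 to -0.43 over all settings.

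The sign turned for these values. Quantile normalization gave 0.0188 for Per1 in experiment 1, 0.0169 for Clock and 0.023 for Dbp in experiment 2, and 0.0093 for Clock and 0.0132 for Per2 over both. Median centring gave -0.0273 for Arntl, -0.0084 for Per3 and -0.0372 for Nr1d2 in experiment 2, and -0.0167 for Clock in the difference between experiments. Array weights gave 0.0402 for Per2 and 0.0025 for Per3 over both. With each array left out, experiment 1 gave -0.0912 to 0.0327 for Clock and -0.227 to 0.1609 for Per1. Experiment 2 gave -0.0104 to 0.0473 for Arntl, -0.129 to 0.0972 for Dbp, -0.0401 to 0.113 for Nr1d1, -0.0676 to 0.0891 for Nr1d2 and -0.0158 to 0.1019 for Per3. Both together gave -0.0524 to 0.0268 for Per2 and -0.0613 to 0.0029 for Per3, and the difference between experiments -0.0481 to 0.0758 for Clock and -0.0568 to 0.1685 for Tef.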
